A study of Mus musculus with 24 samples.

Results

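Klf2, Klf4 and Klf5 are Krüppel-like transcription factors of the naive pluripotency network, and their RNA was followed here through mouse pluripotent and germ line cells. The members were the probe sets that the array annotation lists for 1 of these 3 symbols alone, which gave 6 of 45101 probe sets and 3 of 18194 genes. Klf2 had 1 probe set (1448890_at), Klf4 had 2 (1417394_at and 1417395_at) and Klf5 had 3 (1451021_a_at, 1451739_at and 1430255_at). The first probe set named for each gene has the highest mean log2 signal of its gene over all 24 arrays and was used for the tests.

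The samples were 24 Affymetrix arrays in 12 groups of 2, all of strain C57BL/6. Unamplified arrays covered embryonic stem cells (ESCs, kept feeder free in 2i+LIF, a pair of kinase inhibitors with leukaemia inhibitory factor). They also covered days 1, 2 and 3 of the induction of epiblast-like cells (EpiLCs) from ESCs, EpiSCs (epiblast stem cells, a culture made from E5.75 epiblast) and PGCLCs (primordial germ cell-like cells, induced from day 2 EpiLCs). PCR-amplified arrays (22 cycles from 5 ng of total RNA, the equivalent of 500 cells) covered ESCs, day 2 EpiLCs, EpiSCs and PGCLCs again, with epiblast of embryonic days 5.5 to 6.0 and primordial germ cells (PGCs) of embryonic day 9.5 from embryos. Both arrays of a group are labelled biological replicates, with no word on separate cultures or litters, and a p-value therefore reflects only the spread of such pairs. The isolation of PGCs and PGCLCs and the EpiSC medium are not stated in the labels.

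Krüppel-like factors bind CACCC boxes and other GC-rich DNA through C2H2 zinc fingers at their C terminus. In mouse ESCs, Klf2, Klf4 and Klf5 support self-renewal with overlapping roles. Klf4 is known as a target of LIF acting through STAT3, Klf2 as a factor sustained by inhibition of the MEK-ERK pathway, and Klf4 is also one of the factors used to reprogram somatic cells. Outside pluripotent cells, Klf2 is best known in endothelium, Klf4 in skin and gut epithelium, and Klf5 in gut epithelium and trophectoderm.

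RefSeq promoters on mouse build GRCm38.p6 were found for 2 of the 3 genes, Klf2 and Klf4, and not for Klf5. They are shown as sequence only, and no shared control of these genes was tested. Each sequence runs from 250 bases before to 50 bases after the annotated start, and capitals mark GC boxes (GGGCGG on either strand). Klf4 is at chr4:55532426-55532725 on the minus strand and Klf2 at chr8:72318812-72319111 on the plus strand.
Klf2: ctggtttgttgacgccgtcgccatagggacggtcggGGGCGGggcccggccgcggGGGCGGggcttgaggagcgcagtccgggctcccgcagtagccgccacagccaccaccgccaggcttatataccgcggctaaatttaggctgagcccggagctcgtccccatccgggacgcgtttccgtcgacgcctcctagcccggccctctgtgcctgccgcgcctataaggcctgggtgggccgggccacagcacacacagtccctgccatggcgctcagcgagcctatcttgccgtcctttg
Klf4: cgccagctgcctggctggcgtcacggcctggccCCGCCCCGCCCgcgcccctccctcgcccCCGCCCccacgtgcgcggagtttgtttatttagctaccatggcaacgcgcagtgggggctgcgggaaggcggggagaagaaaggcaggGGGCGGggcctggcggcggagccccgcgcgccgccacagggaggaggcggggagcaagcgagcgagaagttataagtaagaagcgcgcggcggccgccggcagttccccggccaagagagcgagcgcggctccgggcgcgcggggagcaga

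The Klf2 window held 2 GC boxes and the Klf4 window 4, of which 2 share 1 base. A GC box was present in 35.7% of all 32851 promoters of this length. GC content was 69.3% for Klf2 and 74.3% for Klf4, where the median of all promoters was 52.7%. Neither window held TTCNNNGAA, the letters of a STAT site, or CCACACCC, 1 form of the CACCC box, on either strand. These letters were present in 8.3% and 3.56% of all promoters. Shorter and other forms of the CACCC box were not searched.

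Before the results, 3 facts of the arrays bear on them. Signals are intensities on a linear scale. A gene was tested in a set when 2 or more of its 12 arrays lay above the 40th percentile, an intensity of 28.1 for unamplified and 24.04 for amplified arrays, called the filter level here. All 3 genes passed on both sets. The correlation of the 2 arrays of a group over all genes was 0.975 to 0.991 without amplification. With it, the range was 0.957 to 0.972, apart from the EpiSCs at 0.911. The ratio of 5' to 3' Actb signal was 0.792 to 0.874 without and 0.0503 to 0.206 with amplification, and the 2 sets were kept apart. The labels were checked with marker sums. Germ cell markers (Dppa3, Prdm1, Tfap2c, Dnd1, Prdm14 and Kit) summed to 14685 to 20387 on the PGCLC and PGC arrays and to at most 4106 elsewhere. Postimplantation epiblast markers (Fgf5, Pou3f1, Otx2, Dnmt3b, Wnt8a and Sox3) summed to 9840 or more in EpiLCs and epiblast, to 6049 to 6983 in EpiSCs and to at most 2122 elsewhere. In bulk RNA, fewer cells that express a gene and less RNA per cell cannot be told apart.

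In unamplified ESCs all 3 genes were at their highest. Klf2 gave 3286 and 3225 in the ESC arrays, Klf4 gave 4900 and 4838, and Klf5 gave 2455 and 2739. At day 1 of EpiLC induction every one of them was lower, without overlap between the groups. With 2 arrays a group, any pair of groups without overlap gives p = 0.333 in an exact permutation test. The share of all genes without overlap was not counted. Klf2 was at 719 and 732 at day 1 and at 117 and 145 at day 2. Klf4 was at 287 and 250 at day 1 and at 65.4 and 72.0 at day 2. Klf5 was at 628 and 750 at day 1 and at 247 and 287 at day 2. Klf4 lost most, and Klf5 kept the largest part of its ESC signal.

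Fitted with limma over all 14935 genes tested, all 3 members were called lower at day 1 than in ESCs, at an adjusted p under 0.05 and a log2 difference of at least 1, where 6.38% of genes were called lower. Klf2 fell by 2.17 ± 0.09 on the log2 scale (± SE, n = 2 arrays a group, limma adjusted p = 3.18e-08), a 4.49-fold fall. Klf4 fell by 4.18 ± 0.24 (limma adjusted p = 2.97e-07), an 18.2-fold fall. Klf5 fell by 1.92 ± 0.14 (limma adjusted p = 1.67e-06), a 3.78-fold fall. From day 1 to day 2 all 3 were called lower again, where 2.78% of genes were. This second step was 2.48 ± 0.09 log2 units down for Klf2 (limma adjusted p = 8.35e-08), 1.97 ± 0.24 down for Klf4 (0.000141) and 1.37 ± 0.14 down for Klf5 (4.44e-05).

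The whole step from ESCs to day 2 was 24.98-fold down for Klf2, 70.9-fold down for Klf4 and 9.75-fold down for Klf5, with all 3 called lower where 7.5% of genes were. On the log2 scale, 46.6% of the Klf2 fall, 68% of the Klf4 fall and 58.4% of the Klf5 fall had been reached at day 1. Taking 1 array from each group in all 8 ways, that share ran from 44.7% to 48.7% for Klf2, from 65.6% to 70.5% for Klf4 and from 51.6% to 65.2% for Klf5. These ranges did not overlap on these probe sets. On the second probe sets, the share was 70.4% for Klf4 and 89.4% for Klf5 (78.1% to 101%), so the order of these 2 genes depended on the probe set.

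**Figure D1:**
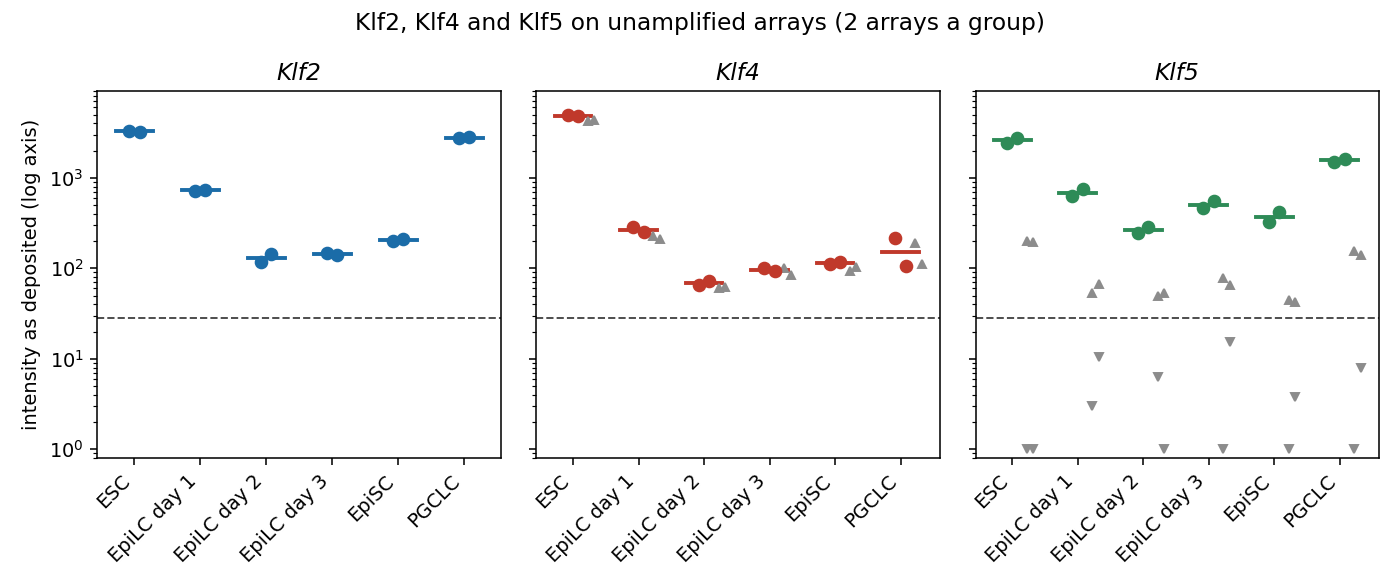
Intensity as deposited (log axis) of Klf2, Klf4 and Klf5 in the 6 unamplified groups. Coloured points are the 2 arrays of a group on the representative probe set, bars are their geometric mean, grey triangles are the other probe sets of the same gene (for Klf5, 1451739_at points up and 1430255_at points down) and the dashed line is the filter level of 28.1. On the representative probe sets, all 3 genes are highest in ESCs and lowest at day 2, and Klf2 and Klf5 but not Klf4 are near their ESC level in PGCLCs.

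The other probe sets gave 2 kinds of answer. The second Klf4 probe set followed the first closely, with a Pearson r of 0.999 over the 12 unamplified arrays. It read 4211 and 4359 in ESCs and 60.4 and 62.9 in day 2 EpiLCs. The second Klf5 probe set was dimmer, at 198 and 194 in ESCs, 52.7 and 66.5 at day 1 and 49.2 and 53.6 at day 2. Its day 1 and day 2 arrays overlapped, and its own difference between these days was -0.21 ± 0.16 log2 (limma adjusted p = 0.41), so that the second step of Klf5 rested on 1 probe set. The third Klf5 probe set was under the filter level on all 24 arrays and carried no reading of the gene. With the mean over all 3 Klf5 probe sets, the first day's fall was 0.99 and the second's 0.65 on the log2 scale, and neither was called.

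After day 2 the fall stopped. At day 3 Klf2 read 149 and 139, which overlapped its day 2 arrays. Klf4 read 101 and 92.6, above both of its day 2 arrays. Klf5 read 460 and 555, also above both. No member was called between day 2 and day 3, where 4.26% of genes were. The differences were 0.14 ± 0.09 log2 for Klf2 (limma adjusted p = 0.313), 0.49 ± 0.24 for Klf4 (0.172) and 0.93 ± 0.14 for Klf5 (0.000821). Klf5 passed on p and lay under the size of 1, and it was called when day 2 array 2 or day 3 array 1 was left out (0.79 to 1.06 over the 4 arrays).

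EpiSCs, a primed state, held all 3 genes low. Klf2 was at 203 and 211, Klf4 at 111 and 117, and Klf5 at 324 and 417. These levels were 0.67 ± 0.09, 0.73 ± 0.24 and 0.47 ± 0.14 log2 units above day 2 EpiLCs. Each passed on p (limma adjusted p = 0.000106, 0.0264 and 0.0166) and none reached the size of 1, so 0 of the 3 were called where 18.9% of genes were. For Klf5 the direction depended on the probe set, at -0.25 log2 on the second one and -0.03 for the mean of 3. Against ESCs, Klf2, Klf4 and Klf5 remained 15.7-fold, 42.9-fold and 7.05-fold lower in EpiSCs and all were called, where 8.88% of genes were called lower. All 11 fibroblast markers (collagens, Dcn, Lum and others) were above the filter level on both EpiSC arrays and summed to 6943 and 7036, against 448 and 477 in day 2 EpiLCs. The part of fibroblasts in the Klf levels of EpiSCs was not tested.

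PGCLCs separated the members. Klf2 returned to 2753 and 2802, close under the 2 ESC arrays. Klf5 returned to 1486 and 1634, above every EpiLC and EpiSC array and below both ESC arrays. Klf4 read 214 and 106, far below ESCs, with its 2 arrays on both sides of the EpiSC arrays and an SD of 0.72 log2, against at most 0.14 in its other groups. From day 2 EpiLCs to PGCLCs, Klf2 rose by 4.41 ± 0.09 log2 (21.3-fold, limma adjusted p = 1.44e-10) and Klf5 by 2.55 ± 0.14 (5.86-fold, 9.85e-08). Klf4 was called too, at 1.13 ± 0.24 (2.2-fold, limma adjusted p = 0.00217), where 8.77% of genes were called higher. That call was lost without PGCLC array 1, which left 0.63 log2, and with only these 2 groups in the fit (adjusted p = 0.0566).

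Set against ESCs, the PGCLC level was 0.23 ± 0.09 log2 lower for Klf2 (limma adjusted p = 0.0552) and 0.73 ± 0.14 lower for Klf5 (0.00107, under the size of 1). For Klf4 the difference was -5.01 ± 0.24 log2, 32.3-fold lower (limma adjusted p = 3.21e-08), where 11.2% of genes were called lower. On the log2 scale, the PGCLC level made up 95.1% of the Klf2 fall, 77.6% of the Klf5 fall and 18.4% of the Klf4 fall. Over the 8 ways of taking 1 array a group, these shares ran from 94.3% to 95.8%, from 72.9% to 82.3% and from 9.18% to 27.5%, with no overlap between the genes. On amplified arrays the shares were 83.7% for Klf2 (75.9% to 90.5%), 109% for Klf5 (105% to 114%) and 22.2% for Klf4 (11.5% to 31.2%). The order of Klf2 and Klf5 was thus reversed on that set, while Klf4 had the lowest share on both. The amplified Klf4 share was computed from day 2 EpiLC and PGCLC signals all under the filter level, so its value is not firm. The amplified Klf5 share used day 2 array 2 (21.0), which was also under it. Endothelial markers, listed because Klf2 is known in endothelium, summed to 1231.5 and 884 in PGCLCs and to 652 and 701 in day 2 EpiLCs. Of 11 tested, 4 were called higher and 0 lower in PGCLCs, and 8 of the 12 on the array were above the filter level on both PGCLC arrays. Unlike the list as a whole, the single marker Cdh5, which encodes VE-cadherin, was under the filter level on both PGCLC arrays (15.5 and 19.9). Of all 14935 genes tested, 3081 were called in either direction between PGCLCs and day 2 EpiLCs, 1310 of them higher in PGCLCs (8.77% of all genes). Trophoblast markers, listed for Klf5, summed to 839 and 1518 in PGCLCs and 580 and 584 in day 2 EpiLCs, with 2 of 6 tested called higher and 0 lower and 6 of 8 above the filter level on both PGCLC arrays. Among them Cdx2 read 168 and 873 in PGCLCs and 1.45 and 1 in day 2 EpiLCs, and Elf5 and Gata3 were under the filter level in both. Fibroblast markers summed to 802 and 1124 in PGCLCs and 448 and 477 in day 2 EpiLCs, with 7 of 11 called higher and 3 lower (median 2.17 log2). The part of these cell types in the Klf levels was not tested.

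Ordered by level on unamplified arrays, Klf2 ran from ESC to PGCLC, day 1 EpiLC, EpiSC, day 3 EpiLC and day 2 EpiLC. Neighbours in that order were called different at 2 places, between PGCLC and day 1 (1.94 log2) and between day 1 and EpiSC (1.81 log2). Klf4 ran from ESC to day 1, PGCLC, EpiSC, day 3 and day 2, and its neighbours were called different only between ESC and day 1 (4.18 log2). Klf5 ran from ESC to PGCLC, day 1, day 3, EpiSC and day 2, and its neighbours were called different only between PGCLC and day 1 (1.18 log2). The lower part of the Klf5 order depended on the probe set. By geometric mean, its second probe set had day 3 (71.2) above day 1 (59.2) and EpiSC (43.3) below day 2 (51.4). Of all genes, 7.79% were called lower in EpiSCs than at day 1 and 10.3% higher in PGCLCs than at day 1.

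The amplified arrays add the embryo. In amplified ESCs, Klf2 read 2238 and 1997, Klf4 read 322 and 329, and Klf5 read 119 and 118. In amplified day 2 EpiLCs Klf2 read 62.4 and 107 and Klf5 read 33.1 and 21.0, while Klf4 was under the filter level on both arrays at 8.23 and 3.02. No array of the day 2 group reached its ESC counterparts. The step from ESCs to day 2 EpiLCs was called lower for all 3, where 4.24% of genes were. Klf2 fell by 4.69 ± 0.58 log2 (25.9-fold, limma adjusted p = 0.000989). Klf4 fell by 5.79 ± 0.45 log2 (8.24e-05), and against the filter level it was at least 13.6-fold lower. Klf5 fell by 2.16 ± 0.38 log2 (4.48-fold, 0.00607), a call that was lost without day 2 array 2.

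Whether this step depended on amplification was tested in 1 fit of both sets. No member was called, where 0.453% of 14554 genes were. The amplified minus the unamplified difference was -0.05 ± 0.66 log2 for Klf2 (limma adjusted p = 0.996), 0.36 ± 0.48 for Klf4 (0.954) and 1.12 ± 0.40 for Klf5 (0.387). With intensities raised to the filter level, the Klf4 value was 2.39 and was called, since its amplified EpiLC signals lay under that level. The ESC signals of Klf4 were at least 4838 on unamplified and at most 329 on amplified arrays, and those of Klf5 at least 2455 and at most 119. Those of Klf2 were at least 3225 and at least 1997.

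**Figure D2:**
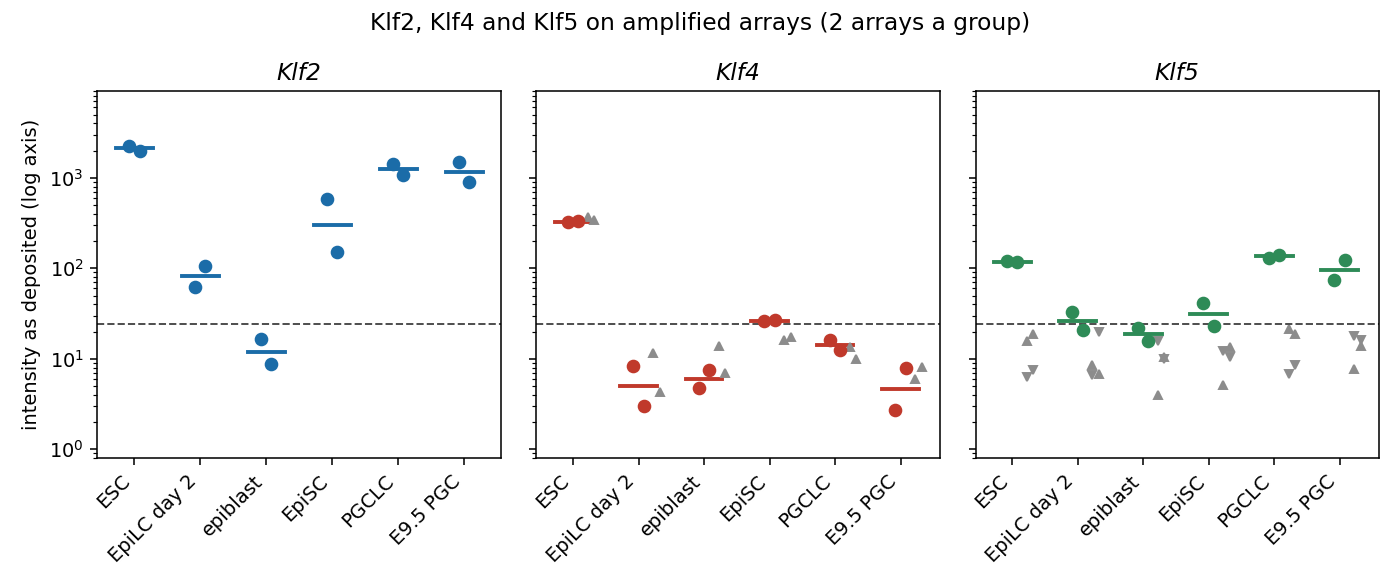
Intensity as deposited (log axis) of Klf2, Klf4 and Klf5 in the 6 amplified groups. Coloured points are the 2 arrays of a group on the representative probe set, bars are their geometric mean, grey triangles are the other probe sets (for Klf5, 1451739_at points up and 1430255_at points down) and the dashed line is the filter level of 24.04. Klf2 spans the widest range, from 8.77 in epiblast to 2238 in ESCs, and Klf4 is above the filter level in ESCs and EpiSCs only.

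Epiblast was the group with the lowest Klf2 signal of all 24 arrays. Klf2 read 16.3 and 8.77 there, both under the filter level. Klf4 read 4.72 and 7.44 and Klf5 read 21.8 and 15.8, under it as well. Against amplified ESCs, epiblast was at least 87.9-fold lower for Klf2, at least 13.6-fold lower for Klf4 and at least 4.92-fold lower for Klf5. All 3 were called (limma adjusted p = 5.49e-05, 5.29e-05 and 0.00139), where 6.64% of genes were called lower.

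Day 2 EpiLCs, made in culture as the counterpart of this epiblast, differed from it most in Klf2 among the members. Both EpiLC arrays were above both epiblast arrays for Klf2, and the groups overlapped for Klf4 and Klf5. The Klf2 difference was 2.77 ± 0.58 log2, at least 3.4-fold, with a limma adjusted p of 0.0746, and was not called. With the replicate number as a block, which pairs these amplified arrays, the same difference had a limma adjusted p of 0.027 and was called. Klf4 differed by -0.01 ± 0.45 log2 and Klf5 by 0.51 ± 0.38 (limma adjusted p = 1 and 0.77). The share of all genes called in this comparison was 0.961%, or 150 genes, with 309 called under the block and 11 with only these groups in the fit. Without both amplified EpiSC arrays, which stand apart, the Klf2 difference was also called (adjusted p = 0.0138).

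Amplified EpiSCs read 581 and 153 for Klf2, 26.0 and 26.8 for Klf4, and 41.4 and 23.1 for Klf5. The SD of the 2 Klf2 arrays was 1.36 log2, against at most 0.64 in the other amplified groups. Klf2 and Klf4 were called higher in EpiSCs than in epiblast, where 8.97% of genes were. Klf2 was 4.64 ± 0.58 log2 higher (at least 12.4-fold, limma adjusted p = 0.000848), a call lost with only these groups in the fit (adjusted p = 0.0571). Klf4 was 2.15 ± 0.45 log2 higher (0.0124), yet only at least 1.1-fold higher against the filter level. That Klf4 call was lost on the second probe set (0.76 log2), with intensities raised to the filter level (0.13 log2), with only these groups in the fit and without epiblast array 1. Klf5 differed by 0.73 ± 0.38 log2 (0.261) and was not called. Visceral endoderm markers summed to 3181 and 993 in epiblast and to 965 and 931 in EpiSCs, and fibroblast markers to 349 and 312 in epiblast and 3217 and 3433 in EpiSCs. Gut epithelium markers summed to 566 and 447 in epiblast and 3150 and 1545.5 in EpiSCs, with 2 of 5 tested called higher and 0 lower. The part of these cell types in the difference was not tested.

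On amplified arrays, germ line cells of embryo and culture held Klf2 and Klf5, with Klf4 under the filter level. In PGCs of embryonic day 9.5, Klf2 read 1489 and 900 and Klf5 read 73.5 and 122. In amplified PGCLCs, Klf2 read 1434.5 and 1077 and Klf5 read 130 and 140. Klf4 was under the filter level on all 4 arrays, at 2.74 and 7.88 in PGCs and 16.3 and 12.6 in PGCLCs. Every Klf2 and Klf5 array of these groups lay above every EpiLC, EpiSC and epiblast array of the amplified set, on the probe sets used for the tests. The second Klf5 probe set was under the filter level on all 12 amplified arrays. The Klf5 results on amplified arrays thus rest on 1 probe set. Against ESCs, Klf5 in PGCs overlapped, and Klf2 in PGCs differed by -0.87 ± 0.58 log2 (limma adjusted p = 0.404). Klf4 was called at least 13.6-fold lower than in ESCs in both PGCLCs and PGCs, where 5.23% and 7.21% of genes were called lower.

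From epiblast to PGCs, Klf2 rose by 6.60 ± 0.58 log2, at least 48.1-fold (limma adjusted p = 0.000117). Klf5 rose by 2.35 ± 0.38 log2, at least 3.94-fold (0.00342). Klf4 differed by -0.04 ± 0.45 log2 (0.98) with both groups under the filter level. Thus 2 of the 3 were called higher, where 6.11% of genes were. From day 2 EpiLCs to PGCLCs on amplified arrays, Klf2 rose by 3.93 ± 0.58 log2 (15.2-fold, limma adjusted p = 0.00196) and Klf5 by 2.36 ± 0.38 (5.13-fold, 0.00287), where 6.46% of genes were called higher. Klf4 differed by 1.28 ± 0.45 (0.0934), with both groups under the filter level, and was not called.

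The size of the germ line step was compared between culture and embryo. No member was called, where 0.513% of genes were. For Klf2 the culture step was 2.67 ± 0.83 log2 smaller (limma adjusted p = 0.27), with its lower starting signal in epiblast under the filter level. The Klf4 steps differed by 1.33 ± 0.63 log2 (0.666) and the Klf5 steps by 0.01 ± 0.53 (1). The end points themselves, PGCLCs minus PGCs, differed by 0.10 ± 0.58 log2 for Klf2 (limma adjusted p = 1), 1.32 ± 0.45 for Klf4 (0.207) and 0.51 ± 0.38 for Klf5 (0.793). None was called, where 2.88% of genes were (450 genes). That count was not firm: it was 773 with the replicate block, 91 to 284 without 1 array of either group, and 0 with only these groups fitted in limma, where 2032 genes had an unadjusted p under 0.05.

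Markers of other cell types were read on the same germ line arrays. Fibroblast markers summed to 2347 and 871 in PGCs and to 349 and 312 in epiblast, with 7 of 11 called higher and 1 lower in PGCs (median 2.88 log2). Against PGCs, 5 of the 11 were called lower in PGCLCs and 0 higher, and their sums were 348 and 468. Between PGCLCs and PGCs, 2.88% of all genes were called in either direction. Erythroid markers, mostly embryonic globins, summed to 11009 and 3972 in PGCs and to at most 389 in the other amplified groups. Endothelial markers summed to 1116 and 803 in PGCs, 2525 and 2246.5 in PGCLCs, 726 and 558 in epiblast, and 769 and 747 in day 2 EpiLCs. Of 11 tested, 6 were called higher and 0 lower in PGCLCs than in day 2 EpiLCs (median 1.91 log2), 5 higher and 0 lower in PGCLCs than in PGCs, and 3 higher and 1 lower in PGCs than in epiblast. Of all genes, 6.46% were called higher from day 2 EpiLCs to PGCLCs and 6.11% from epiblast to PGCs. In PGCLCs, 1.56% were called higher than in PGCs. Of the 12 endothelial markers on the array, 10 were above the filter level on both PGCLC arrays and 8 on both PGC arrays. Unlike the counts of its list, the single marker Cdh5 was near the filter level. It read 26.0 and 21.6 in PGCs, 19.3 and 23.3 in PGCLCs and 35.2 and 34.1 in epiblast. The part of these cells in the Klf2 and Klf5 levels was not tested.

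**Figure D3:**
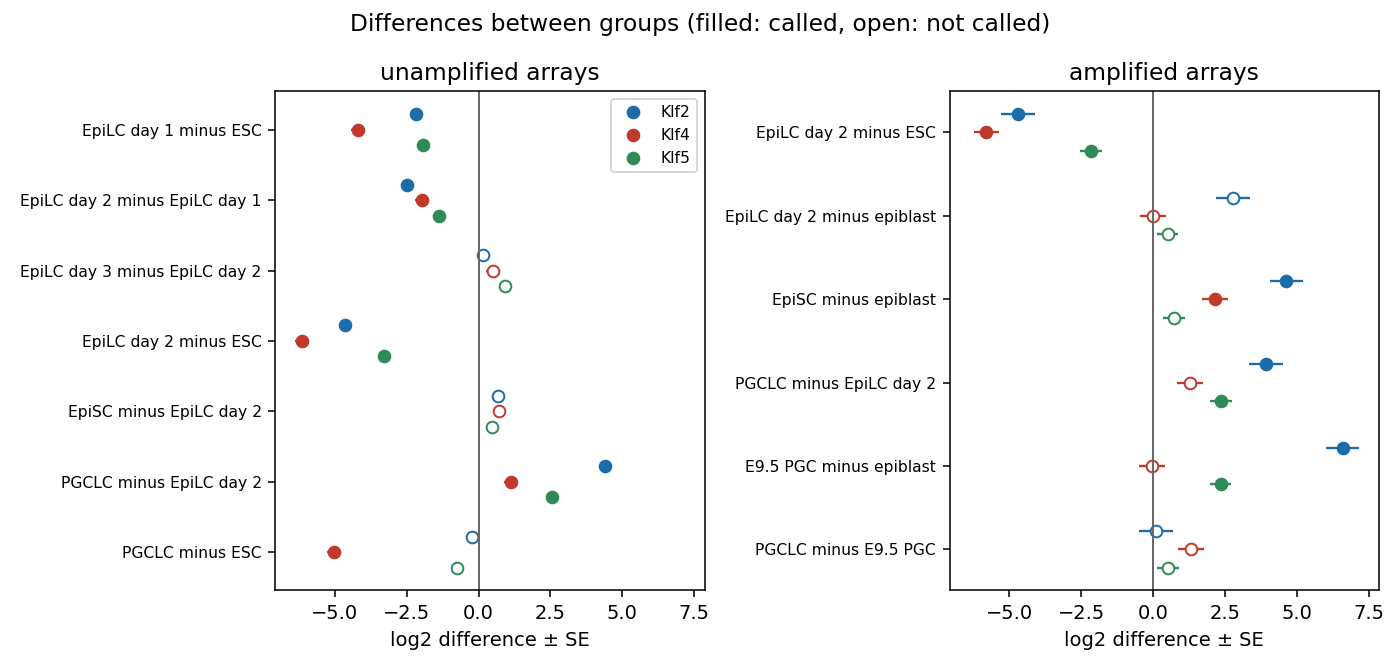
Log2 differences with standard errors between groups for Klf2 (blue), Klf4 (red) and Klf5 (green), n = 2 arrays a group, on unamplified (left) and amplified arrays (right). Filled points were called by limma and open points were not. All 3 genes fall from ESCs to day 2 EpiLCs on both sets, and Klf2 and Klf5 rise in each germ line step.

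On amplified arrays, the order of Klf2 was ESC, PGCLC, PGC, EpiSC, day 2 EpiLC and epiblast, with neighbours called different only between PGC and EpiSC (1.96 log2, limma adjusted p = 0.0496). The order of Klf5 was PGCLC, ESC, PGC, EpiSC, day 2 EpiLC and epiblast, also with 1 call between neighbours, PGC and EpiSC (1.62 log2, 0.0168), where 4.88% of genes were called higher in PGCs. Klf4 ran from ESC to EpiSC, PGCLC, epiblast, day 2 EpiLC and PGC, with 1 call between ESC and EpiSC (3.63 log2, 0.000413), where 5.64% of genes were called lower in EpiSCs. Below ESC and EpiSC, the order of Klf4 groups has no meaning, since all of those arrays were under the filter level.

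The profiles of the members across arrays were alike to different degrees. Pearson's r of log2 intensity between Klf2 and Klf5 was 0.948 over the 12 unamplified and 0.898 over the 12 amplified arrays. Between Klf4 and Klf5 it was 0.803 and 0.466, and between Klf2 and Klf4 0.729 and 0.535. The arrays of a group share their source, so these values describe the 6 groups of a set more than 12 independent points. Of 13580 other genes that passed the filter on both sets and had no provisional symbol (such as Gm or Rik names), those most like a member were ranked by the lower of the 2 correlations. For Klf2 they were Ppt1 (0.929), Fbxo15 (0.911), Hmces, Rfx2 and Slc5a6. For Klf5 they were Arid5b (0.935), Fbxo15 (0.934), Epp13, Rfx2 and Nr5a2. For Klf4 they were Ap3b1 (0.932), Nkx6-3, Ephx2, Nkx6-2 and Aldh1l1. On amplified arrays Klf4 was under the filter level in all groups but ESCs and EpiSCs. Nkx6-3 and Nkx6-2 were under it there in all groups but ESCs. Their likeness to Klf4 on that set thus largely sets ESCs against signals under the filter level.

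The lists of Klf2 and Klf5 thus shared Fbxo15 and Rfx2, and that of Klf4 shared no gene with them. Fbxo15, a gene known for its expression in ESCs, read 3473 and 3528 in unamplified ESCs, 505 and 554 in day 2 EpiLCs and 3920 and 3969 in PGCLCs. Arid5b read 1707 and 1689, then 178 and 207, then 1609 and 1487 in the same groups, so both were back near the ESC level in PGCLCs. Ap3b1, a subunit of the AP-3 adaptor complex, read 1416 and 1430.5 in ESCs, 614 and 592 in day 2 EpiLCs and 646 and 682 in PGCLCs, and so stayed low there.

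Other genes of the family changed in both directions. Of 13 other Klf genes tested, 1 rose and 3 fell from ESCs to day 2 EpiLCs on unamplified arrays, where 16.5% of genes were called in either direction, with a median difference of -0.06 log2 against 0.01 over all genes. Klf7 rose by 2.30 ± 0.19 log2, from 59.8 and 60.3 to 307 and 284. Klf15 fell by 2.94 ± 0.23, from 357 and 370 to 44.5 and 50.4, and Klf12 and Klf9 fell by 1.06 and 1.03. From day 2 EpiLCs to PGCLCs, 0 of the 13 rose and 2 fell. Of 14935 genes, 3081 were called in either direction in this step, 1310 of them higher (8.77% of all genes). Klf9 went from 1392 and 1404.5 to 275 and 90.4, and fell by 3.15 ± 0.35 log2, and Klf3 fell by 1.86 ± 0.12. On amplified arrays 0 of the 13 rose and 3 fell in the same step. Of 15609 genes, 1983 were called in either direction there, 1009 of them higher (6.46% of all genes). The Klf genes called higher in PGCLCs were thus Klf2 and Klf5, with Klf4 on unamplified arrays only. At these shares of all genes, 0 of 13 does not set the other Klf genes apart.

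From epiblast to PGCs, likewise, 0 of the 13 rose and 2 fell. Of 15609 genes, 1634 were called in either direction in this step, 953 of them higher (6.11% of all genes). Klf9 went from 698 and 652 in epiblast to 57.7 and 37.3 in PGCs (a fall of 3.86 ± 0.31 log2), and Klf7 fell by 1.19 ± 0.32. The SP factors, zinc finger relatives that also bind GC boxes, gave 1 fall among 7 genes from ESCs to day 2 EpiLCs (Sp5, at least 10.2-fold) and 1 rise from day 2 EpiLCs to PGCLCs (Sp4, 1.13 ± 0.12 log2) on unamplified arrays. Both were named after their values were seen. Of all genes, 7.5% were called lower in the first of these steps and 8.77% higher in the second.

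**Figure D4:**
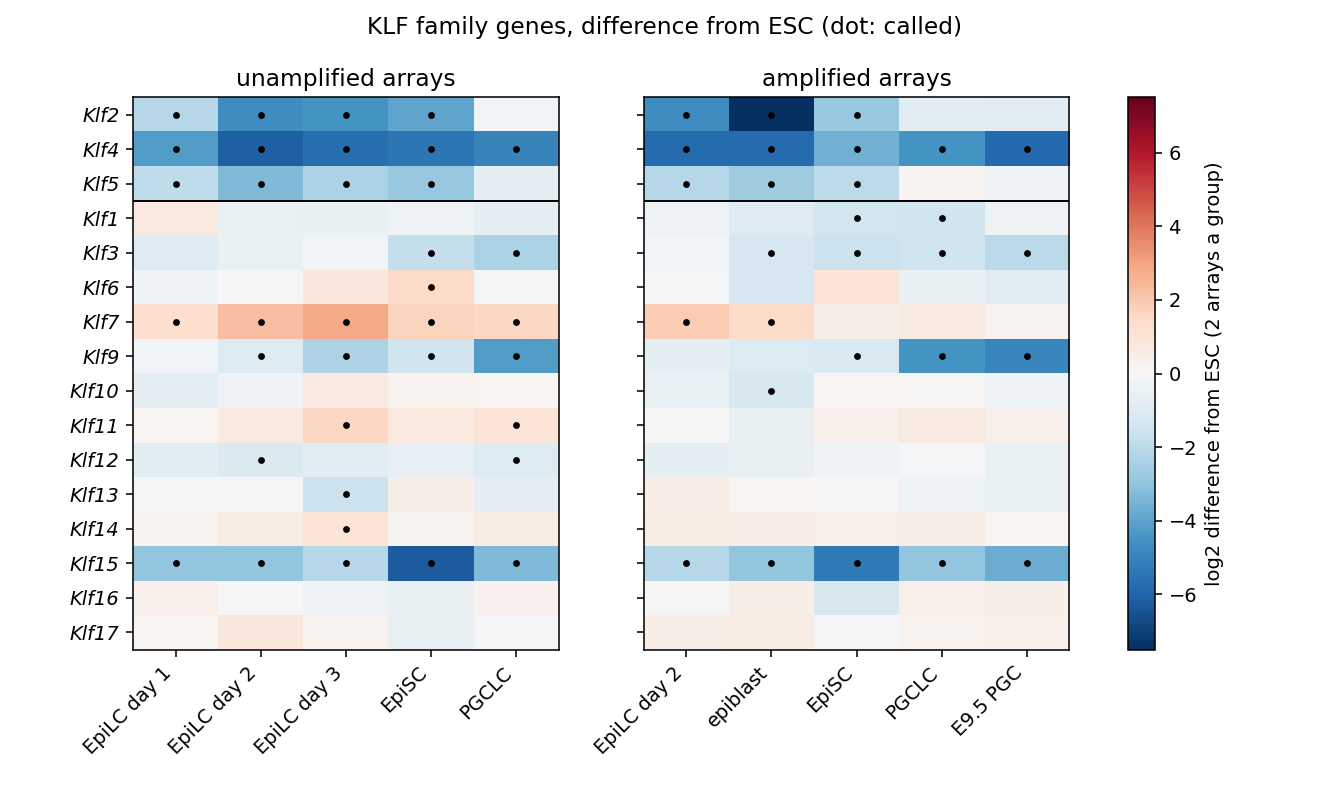
Log2 difference from ESCs of the 3 members (above the line) and 13 other Klf genes (rows) in each group (columns) on unamplified (left) and amplified arrays (right), n = 2 arrays a group. Red is higher and blue lower than ESC, and a dot marks a gene called by limma. Klf2, Klf4 and Klf5 are lower in every EpiLC, EpiSC and epiblast group, Klf7 is higher in EpiLCs, and Klf9 is the lowest of the 13 in PGCLCs and PGCs.

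Genes of the LIF and STAT3 pathway, which acts upstream of Klf4 in ESCs, were counted over the same steps. From ESCs to day 1 EpiLCs, 0 of 11 rose and 4 fell, with a median of -0.67 log2 against -0.03 over all genes. Of all genes, 6.38% were called lower in this step. Socs3, a feedback inhibitor induced by STAT3, went from 1640 and 1693 to 58.9 and 57.7 and fell by 4.84 ± 0.21 log2. Stat3 fell by 1.67 ± 0.12, Il6st, the shared receptor chain gp130, by 1.25 ± 0.10, and the kinase gene Jak2 by 1.16 ± 0.16. In EpiSCs, 4 of the 11 rose and 1 fell against day 2 EpiLCs, where 18.9% of all genes were called in either direction. Socs3 was 3.45 ± 0.21 log2 higher there at 1080 and 1084, and Stat3 was 1.80 ± 0.12 higher. Klf4 read 111 and 117 in EpiSCs, 0.73 ± 0.24 log2 above day 2 EpiLCs and not called. On amplified arrays Klf4 was called higher in EpiSCs than in day 2 EpiLCs (2.17 ± 0.45 log2, limma adjusted p = 0.0117). Against the filter level that difference was only at least 1.1-fold.

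In PGCLCs, 5 of the 11 rose and 0 fell against day 2 EpiLCs (median 0.45 log2, against -0.09 over all genes). Of all genes, 8.77% were called higher in this step. Socs3 rose by 3.35 ± 0.21, to 1355.5 and 752, and Stat3 by 1.64 ± 0.12. Embryonic PGCs differed from PGCLCs in this list. On amplified arrays, 3 of 11 were called higher in PGCLCs than in PGCs and 0 lower, where 1.56% of genes were called higher. Socs3 read 395 and 258 in PGCLCs and 23.8 and 10.4 in PGCs, both PGC arrays being under the filter level, which makes it at least 13.3-fold higher in PGCLCs (limma adjusted p = 0.00282). Stat3 was 1.72 ± 0.32 log2 higher in PGCLCs. No Klf member was called in this comparison.

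Of the naive pluripotency factors that work with the Klf genes, 8 of 9 fell and 1 rose from ESCs to day 2 EpiLCs (median -3.88 log2, against 0.01 over all genes). Of all genes, 7.5% were called lower in this step. Tbx3 fell 52.0-fold and Tfcp2l1 44.3-fold, Nr5a2 at least 51.7-fold and Prdm14 at least 19.6-fold, next to 70.9-fold for Klf4. In PGCLCs 7 of 9 rose against day 2 EpiLCs and 1 fell, where 8.77% of all genes were called higher. Esrrb, an orphan nuclear receptor, rose by 3.12 ± 0.17 log2, and Tfcp2l1 by 3.02 ± 0.08. Against ESCs, 4 of 9 were called lower and 1 higher in PGCLCs, where 11.2% of all genes were called lower. Prdm14, a regulator of the germ line and of naive pluripotency, was the one higher, by 1.61 ± 0.24 log2. Tbx3, a T-box factor, differed by -3.86 ± 0.22 log2, Nr0b1 by -2.73 ± 0.41 and Tfcp2l1 by -2.45 ± 0.08. Klf4 differed by -5.01 log2 in the same comparison. From epiblast to PGCs, 6 of 9 rose and 0 fell, where 6.11% of all genes were called higher.

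Among 9 genes reported as targets of the Klf factors in ESCs, 5 fell and 1 rose from ESCs to day 2 EpiLCs (median -1.40 log2). Of all genes, 7.5% were called lower in this step. The cofactor gene Tcl1 fell by 4.98 ± 0.12 log2, Esrrb by 3.88 ± 0.17 and Fbxo15 by 2.73 ± 0.06, while Lefty1, a Nodal inhibitor, rose by 3.30 ± 0.07. From day 2 EpiLCs to PGCLCs, 6 of the 9 rose and 0 fell on unamplified arrays, where 8.77% of all genes were called higher. Tcl1 rose by 4.44 ± 0.12 log2, Fbxo15 by 2.90 ± 0.06 and Sall4 by 1.59 ± 0.06. From epiblast to PGCs, 5 rose and 0 fell, where 6.11% of all genes were called higher. Nanog and Esrrb stand in both this list and that of the naive factors, so the counts are not independent of each other.

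Immediate early genes were counted because Klf2 and Klf4 respond quickly to stimulation of many cells, as do Fos and Egr1. In EpiSCs 7 of 13 tested rose and 1 fell against day 2 EpiLCs, where 18.9% of all genes were called in either direction. The median was 1.17 log2 against 0.02 over all genes, and Fos was 4.44 ± 0.27 log2 higher. Against epiblast, 9 of 14 were called higher in amplified EpiSCs and 1 lower, where 8.97% of all genes were called higher. Fos was 6.78 ± 0.32 log2 higher there. The called Klf2 difference between EpiSCs and epiblast stood beside these changes, and the part of handling or stimulation in it was not tested. In PGCLCs against day 2 EpiLCs, 3 of 13 rose and 3 fell on unamplified arrays. There, 3081 of 14935 genes were called in either direction, 1310 of them higher (8.77% of all genes). On amplified arrays 0 of 14 rose and 3 fell, where 1983 of 15609 genes were called in either direction, 1009 of them higher (6.46% of all genes). The unamplified median was 0.53 log2, and Fos rose by 3.25 ± 0.27 and Junb by 2.85 ± 0.18. From epiblast to PGCs, 3 of 14 rose and 1 fell, where 6.11% of all genes were called higher. The risers were Egr1 (2.65 ± 0.43 log2), Ier3 (2.46 ± 0.37) and Fos (1.48 ± 0.32). The part of stimulation in the Klf2 rises was not tested.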

How the data were processed

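Each of 24 Affymetrix mouse arrays (12 groups of 2) measured total RNA extracted with Qiagen RNeasy and labelled by the one-cycle method, per the labels. The authors deposited 1 linear intensity per probe set and array, from 1 to 17519, with software and normalization not given in the sources used here. Gene names came from the platform annotation, where 34958 probe sets had 1 symbol, 932 several and 9211 none listed, and 64 were controls. Array medians spanned 0.26 log2 on unamplified and 0.15 on amplified arrays, so no scaling was added. The number of arrays limits the precision.

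Intensities under 4.20, the 10th percentile, were set to that value before log2. After the filter, 14935 genes were tested on unamplified, 15609 on amplified and 14554 on both kinds of array. limma 3.58.1 in R 4.3.3 fitted 1 mean per group with an intensity trend in the moderated variances (6 residual degrees of freedom), and two-sided p-values were adjusted by Benjamini-Hochberg over all genes. A gene was called at an adjusted p under 0.05 and a log2 difference of at least 1. Where both arrays of the dimmer group were under the filter level, the fold is against that level and given as "at least". The exact permutation test of 2 arrays against 2 cannot go below 0.333, so it was not used. Tested on simulated data for day 2 EpiLCs minus ESCs, the fit recovered 96% of 50 genes changed by 2 log2 units on unamplified arrays and 62% on amplified arrays. At 1 log2 unit, the size needed for a call, it recovered 54% and 6%. In the simulation, a difference of that size was thus mostly missed on amplified arrays. At this size the rate is also limited by the call rule, since many estimates fall under the threshold. Only 50 genes were changed at each size, while 2458 genes on unamplified and 1329 on amplified arrays were called in the data. The rates therefore need not hold for the data. The simulated noise was independent between arrays and did not include the pairing described next. Between groups, the residuals of same-numbered replicates had a correlation over 0.1 for 15 of 15 group pairs on amplified and 3 of 15 on unamplified arrays, so the numbers were taken to pair the amplified arrays only.

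Genes were named by rule: the members, the 5 genes most like each, and up to 4 called genes with the largest difference per pathway list and comparison, with marker genes of other cell types as sums. The members, lists and rules were chosen with earlier results of these data known. The lists held 14 other Klf genes (Klf8 not found), 9 SP genes (Sp2 and Sp9 not found), 11 LIF and STAT3 genes, 9 naive factors, 9 reported targets, 15 immediate early genes (Cyr61 not found) and markers of 6 other cell types and 2 label checks. Gut epithelium markers summed to 296 and 278 in unamplified PGCLCs, 959 and 958 in day 2 EpiLCs and 1951 and 1858 in EpiSCs. The trophoblast sum on amplified arrays, 13475 to 16023, was mostly Hand1 in every group. Alternatives covered the floor, filter, scaling, probe set, samples fitted, replicate block and each array left out.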

Additional observations from a re-analysis of the deposited data

How the results depend on the processing

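Of 713 values of the members' 51 differences under other settings, 666 kept direction and side of the threshold, 29 changed sign, 12 lost a call and 6 gained one. Centring arrays on their medians, no floor and no filter changed no call or sign, and the replicate block changed one: Klf2 in day 2 EpiLCs minus epiblast, 2.77 with adjusted p 0.027, also called without both EpiSC arrays (0.0138, an alternative chosen after seeing the data). With intensities raised to the 40th percentile, Klf4 gave 0.13 in EpiSCs minus epiblast (call lost). For the dependence on amplification it gave 2.39 for day 2 minus ESC (called), and -0.60 for EpiSC and -1.13 for PGCLC minus day 2 (signs changed). With only the 2 groups fitted, 3 calls were lost at the same size: Klf2 (4.64) and Klf4 (2.15) in EpiSCs minus epiblast and Klf4 in unamplified PGCLCs minus day 2 (1.13). With another probe set, Klf4 in EpiSCs minus epiblast was 0.76, Klf5 day 2 minus day 1 was -0.21 (calls lost) and Klf5 EpiSC minus day 2 was -0.25 (sign changed). The mean over probe sets, which for Klf5 includes one under the filter level on all arrays, lost the Klf5 calls at day 1 (-0.99), day 2 minus day 1 (-0.65) and amplified day 2 minus ESC (-0.88). It changed the sign of Klf5 EpiSC minus day 2 (-0.026) and its dependence on amplification (0.14), the Klf5 culture against embryo step (-0.087) and the Klf4 PGCLC dependence (-0.18). Quantile normalization gave 0.02 for Klf4 day 2 minus epiblast. Where no cause is named, it was not tested.

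Leaving out 1 array changed these ranges across a threshold or 0. Klf4 in PGCLCs minus day 2 ran from 0.63 to 1.64, Klf4 in EpiSCs minus epiblast from 1.83 to 2.48 and Klf5 in amplified day 2 minus ESC from -2.49 to -1.84 (calls lost). Klf5 day 3 minus day 2 ran from 0.79 to 1.06 and the Klf2 EpiSC dependence on amplification from 0.24 to 2.16 (called without amplified EpiSC array 2). The rest were not called and crossed 0: Klf2 day 3 minus day 2 (-0.012 to 0.294), Klf2 PGCLC minus PGC (-0.26 to 0.47), Klf4 day 2 minus epiblast (-0.50 to 0.48), Klf4 PGC minus epiblast (-0.50 to 0.41), the Klf5 culture against embryo step (-0.36 to 0.37), and the dependence on amplification of Klf2 (-0.44 to 0.34) and Klf4 (-0.13 to 0.84) for day 2 minus ESC, Klf5 for EpiSC (-0.66 to 0.18), and Klf4 (-0.36 to 0.66) and Klf5 (-0.52 to 0.14) for PGCLC minus day 2.

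Counts of all called genes stayed within 1.5 times on unamplified arrays under every alternative run. On amplified arrays they ran from 659 to 1877 (1329 as reported) for day 2 minus ESC, 11 to 309 (150) for day 2 minus epiblast, 459 to 3442 (1823) for EpiSC minus epiblast, 793 to 2187 (1634) for PGC minus epiblast and 1009 to 2645 (1983) for PGCLC minus day 2. For PGCLC minus PGC they ran from 0 with only the 2 groups fitted in limma (2032 at an unadjusted p under 0.05) to 773 with the block (450 as reported), with 91 to 284 without 1 array and 690 without the EpiSC arrays. Signals under the filter level, as for Klf4 on 8 of the 12 amplified arrays, limit what these arrays can show.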
